A study of Mus musculus with 12 samples.

Results

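*Stella*, listed in RefSeq as *Dppa3*, and 8 genes near it on mouse chromosome 6 were followed through RNA-seq of cultured female germline stem cells (FGSCs). The 9 members were chosen by symbol: *Stella*, *Gdf3*, *Nanog*, *Apobec1*, *Slc2a3*, *Foxj2*, *C3ar1*, *Necap1* and *Mfap5*. They are 9 of the 25015 genes in the count table and span 383.1 kb in the mm9 genome. *Stella* encodes a small chromatin-associated protein of primordial germ cells, oocytes and early embryos that protects DNA methylation states. *Nanog* and *Gdf3* sit beside it, and in pluripotent cells these 3 genes are active together as one cluster. The outer neighbors serve other functions, among them glucose uptake, complement sensing and endocytosis.

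There were 4 groups of 3 libraries, all from C57BL/6 mouse FGSCs kept on mitotically inactivated STO feeders, a mouse embryonic fibroblast line. KO was 1 single-cell clone edited with lentiviral Cas9 guides against *Stella*, and KO-con was the control given for it, which the sources used here describe no further. Over carried a lentivirus with the *Stella* coding sequence under puromycin selection, and Over-con carried the empty vector. The sources speak of 3 repeats and do not say whether these were separate cultures, so p-values measure only the spread between these libraries. Library totals lay between 5611846 and 12866545 counts, and 3 counts, the smallest amount read as signal, equaled 0.233 to 0.535 CPM by library (CPM are counts scaled to the total of a library, in the usual unit). For the levels of genes given below, the totals were first adjusted by TMM, a normalization between libraries. Such floors cover counting error only.

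The label of the cells was set against 10 germ cell markers. *Ddx4* and *Tfap2c* were listed at 0 in all 12 libraries, and *Dazl*, *Pou5f1*, *Nanos3* and *Stra8* had 1 count each. Nearly all of the summed level came from *Ifitm3*, at a mean of 123.7 CPM, followed by *Sycp3* at 1.64 CPM. The ranges of the sum thus mainly follow *Ifitm3*, and the part of STO feeders in its level was not tested. The sum ranged over 115.8 to 138.7 CPM in KO-con, 79.3 to 120.8 in KO, 152.0 to 165.4 in Over-con and 118.7 to 134.9 in Over. *Prdm1*, a regulator of germ cell specification, was lower in KO at 0.313 ± 0.110 against 1.85 ± 0.147 CPM (SD, n = 3; adjusted p = 0.00147 by edgeR; not called by DESeq2 or with at least 10 counts in every library). Against the other control its counts were too low to be tested. The controls themselves differed in *Prdm1*, with Over-con lower at 0.671 ± 0.128 CPM (adjusted p = 0.0175, edgeR), a call lost in 6 of 15 other settings. *Ifitm3* was lower in Over, at 125.2 ± 8.56 against 154.0 ± 7.63 CPM (adjusted p = 0.0396, edgeR). The *Ifitm3* call was lost with all 12 libraries in 1 fit, with the replicate block, against the other control, and without any 1 library but Over-con library 3 (adjusted p up to 0.247). The controls also differed in *Ifitm3*, with KO-con lower at 120.3 ± 13.1 CPM (log2 -0.36, adjusted p = 0.0059, edgeR). That call was lost without KO-con library 1. *Ddx4*, *Tfap2c*, *Dazl*, *Pou5f1* and *Nanos3* are listed with 2 transcripts each, and genes with several listed transcripts reached a counted level less often. How reads shared by transcripts were counted is not given, and the cause was not tested. Of coding genes with 1 listed transcript, 50.1% reached a mean of 1 CPM, against 23.3% of those with 2 or more. *Ap2a2*, *Picalm* and *Dnm2*, endocytosis genes that most cells use, have several transcripts and were also at 0. A listing at or near 0 is therefore not read as absence or low expression for a gene with several transcripts. That limit does not cover *Stra8* and *Mael*, which have 1 listed transcript each and had 1 and 2 counts in all. *Ifitm3*, *Sycp3* and *Prdm1*, also with 1 listed transcript, had 14674, 191 and 104 counts. By RT-PCR the paper reports RNA of *Ddx4* (*Mvh*), *Pou5f1* (*Oct4*), *Dazl*, *Prdm1* (*Blimp1*) and *Ifitm3* (*Fragilis*) in FGSCs. It also reports MVH and OCT4 protein by staining, and *Stra8* RNA and protein raised by *Stella* overexpression. For *Stra8* these libraries held 1 count.

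The sequences that define the engineered locus are shown first, because they show which bases of *Stella* were targeted and which were supplied by the vector. *Stella* lies on the plus strand at chr6:122576428-122580290 of mm9, in 4 exons, with a coding sequence of 453 bases including the stop codon and 150 codons before it. Each guide had 1 exact match in the genome, and the capitals mark its PAM.
sgRNA-1: tgcggttccgtagactgcgcCGG
sgRNA-2: aagggtccgcactttgttgtCGG
sgRNA-1 lies on the minus strand at chr6:122578671-122578693, with its cut after coding base 170 in codon 57. sgRNA-2 lies on the plus strand at chr6:122578764-122578786, with its cut after coding base 274 in codon 92. The cuts are 104 bases apart, which leaves a remainder of 2 on division by 3. Both fall within the second coding exon, chr6:122578595-122578827, plus strand, shown with both guide sites and their PAMs in capitals.
*Stella* second coding exon: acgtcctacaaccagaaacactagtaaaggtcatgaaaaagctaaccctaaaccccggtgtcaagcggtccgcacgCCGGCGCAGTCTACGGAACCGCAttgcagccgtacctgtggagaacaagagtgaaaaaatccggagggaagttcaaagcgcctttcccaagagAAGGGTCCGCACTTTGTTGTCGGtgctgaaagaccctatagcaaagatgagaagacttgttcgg
The study's own PCR primers for *Stella* lie inside the coding sequence, from base 25 to 45 and from base 136 to 154, before both cuts. Their amplicon of 130 bases is thus also contained in the vector's insert.
forward primer: gacccaatgaaggaccctgaa
reverse primer: gcttgacaccggggtttag
RNA-seq reads share part of this sequence with other places. Of the 424 stretches of 30 bases in the coding sequence, 264 (62.3%) also occur elsewhere in mm9, so the count of *Stella* is uncertain where such reads were dropped.

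*Stella* itself was counted only in the overexpressing libraries. All 9 libraries of KO-con, KO and Over-con had 0 counts. The Over libraries had 347, 371 and 285 counts, equal to 32.1, 28.8 and 30.6 CPM (mean 30.5 ± 1.67, SD, n = 3). The Over libraries thus stood apart from every other library without overlap. Against a floor of 3 counts per Over-con library, 0.374 CPM, the level was at least 81.6-fold higher, with an adjusted p of 1.4e-09 in edgeR's quasi-likelihood test. *Stella* passed the filter on low counts only through the group in which it was high. At its level in Over it ranked 4329 among all transcripts. The 9 libraries without a count held 86788944 counts together, for which 3 counts equal 0.0346 CPM.

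Loss of *Stella* RNA in KO could not be read from these counts, since its control was at 0 as well. The labels KO and KO-con therefore have no check from these counts. The paper reports checks of its knockout by genomic PCR, RT-PCR, Sanger sequencing and Western blot. It also reports *Stella* RNA by RT-PCR and STELLA protein by staining in FGSCs. The counts do not separate transcripts of the vector from those of the endogenous gene, and the vector holds the coding sequence alone. No level per kilobase is given for *Stella* for that reason.

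**Figure D1:**
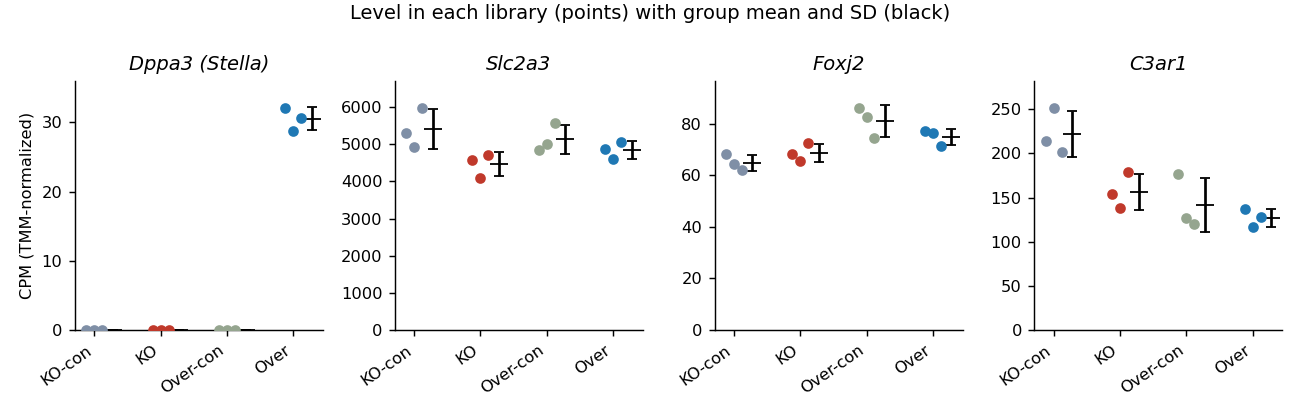
CPM (linear axes from 0) of the 4 members that passed the filter on low counts, with 1 point per library, 3 libraries per group, and the group mean and SD in black. *Stella* was at 0 in 9 libraries and between 28.8 and 32.1 CPM in Over, *Slc2a3* overlapped among most groups, and *C3ar1* was highest in KO-con.

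*Gdf3* and *Nanog* are the pluripotency neighbors of *Stella*. *Gdf3*, a ligand of the TGF-beta superfamily, lies on the minus strand at chr6:122555421-122560105, 16.3 kb from *Stella*. It has 1 listed transcript and had 0 counts in all 12 libraries, Over included. *Nanog*, a homeobox factor of the pluripotency network, lies on the plus strand at chr6:122657507-122664651, 77.2 kb away. It was listed at 0 in all 12 libraries, but it has 4 listed transcripts, and 34.7% of the 30-base stretches of its longest transcript occur elsewhere in mm9. No fold is given for either gene, since every group was at 0.

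Other genes of the pluripotency network were mostly at or near 0 too. Of 22 genes in the list, 7 had no count in any library and 17 had a mean under 1 CPM. Those above 1 CPM were *Klf4*, *Klf5*, *Klf2*, *Tfcp2l1* and, through Over alone, *Stella*. In KO against KO-con 4 of the 22 were tested, and 1 rose and 1 fell, with a median log2 fold change of 0.27 beside 0.007 over all transcripts. Of all transcripts tested, 11.8% passed in KO against KO-con, 1.65% in Over against Over-con and 16.3% between the controls. With so few genes tested, the counts of called genes are not read as results of a list. *Klf4*, a Krüppel-like factor used in reprogramming, rose from 89.0 ± 1.21 to 120.4 ± 11.8 CPM (SD, n = 3 each; log2 0.44, SE 0.08, adjusted p = 0.00203, edgeR). *Klf2*, a related factor, fell from 18.7 ± 0.868 to 12.7 ± 2.76 CPM (log2 -0.56, SE 0.15, adjusted p = 0.0254, edgeR), a call lost against the other control and without any 1 KO-con library or KO library 2 (adjusted p up to 0.118 with a library left out). *Klf4* was called in all 16 other settings. In Over against Over-con, leaving out *Stella*, which the vector supplies, 4 were tested. Of these 0 passed by edgeR, DESeq2 or limma-voom and 1 had an unadjusted p under 0.05, with a median of -0.05 beside -0.001. Between the controls *Tfcp2l1* and *Klf2* differed, in opposite directions, the call of *Klf2* being lost without KO-con library 1 or 3 or Over-con library 1 or 2, with *Tfcp2l1* at 2.95 ± 0.479 CPM in KO-con and 7.33 ± 1.36 CPM in Over-con (SD, n = 3).

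**Figure D2:**
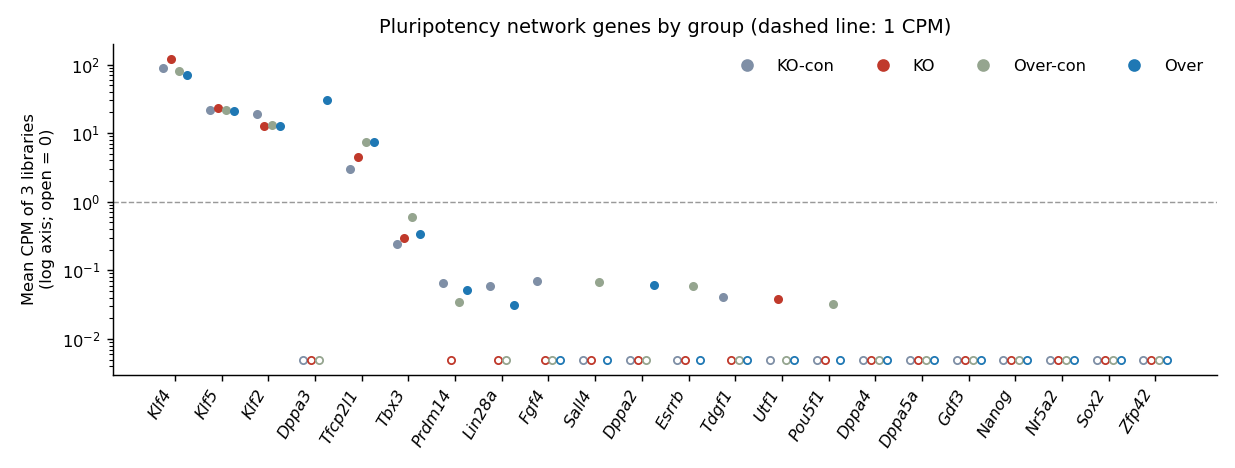
Mean CPM of 3 libraries (log axis) for the 22 genes of the pluripotency list in KO-con, KO, Over-con and Over, with open circles for groups at 0. *Stella* stands at 30.5 CPM in Over and at 0 elsewhere, whereas *Gdf3* and *Nanog* are open in every group and *Klf4* lies highest.

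GDF3 signals through the receptors and SMADs that NODAL and activin use. Of 18 genes on that list, 6 were tested in each comparison and 12 had a mean under 1 CPM, *Nodal* and *Tdgf1* among them with 4 counts and 1 count in all. *Smad2* and *Smad4*, also under 1 CPM, have 3 and 4 listed transcripts. By edgeR 0 passed in KO against KO-con and 0 in Over against Over-con, and 2 and 1 had an unadjusted p under 0.05. DESeq2 and limma-voom also called 0 in both. The medians were -0.12 and 0.02, beside 0.007 and -0.001 over all transcripts. Between the controls, *Smad7*, an inhibitory SMAD, was higher in KO-con (26.3 ± 0.538 against 18.3 ± 2.09 CPM), as was *Acvr1b*, a type I activin receptor (193.9 ± 11.5 against 159.8 ± 11.6 CPM; SD, n = 3), the latter lost without KO-con library 1 or 3 or Over-con library 1. The test of whether KO and Over responded differently passed for *Acvr2a*, a type II receptor, at log2 -0.39 (SE 0.11, adjusted p = 0.0384, edgeR), but was lost in 11 of 20 other settings, all libraries of KO-con left out in turn among them.

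*Apobec1* and *Mfap5* lie on the side of *Stella* toward lower coordinates. *Apobec1*, the cytidine deaminase that edits apolipoprotein B mRNA, lies on the minus strand at chr6:122527810-122552462, 24 kb from *Stella*. It had 4 counts in the whole series, 2 in KO library 2, 1 in Over-con library 1 and 1 in Over library 3. *Mfap5*, a microfibril-associated glycoprotein, lies on the plus strand at chr6:122455863-122479308, 97.1 kb away, and was listed at 0 in all 12 libraries. Both genes have 2 listed transcripts, and neither was tested.

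Their wider families were counted to different extents. Of 8 APOBEC enzymes and editing cofactors 7 had a mean under 1 CPM, and 1 gene was tested in KO against KO-con and 2 in Over against Over-con. edgeR, DESeq2 and limma-voom called 0 in all comparisons, and 0 had an unadjusted p under 0.05. The medians were -0.21 and -0.38. The elastic fiber and microfibril list had 9 of 15 genes tested. In KO 2 rose and 1 fell, beside 11.8% of all transcripts that passed in either direction. *Fbn1*, the main fibrillin of microfibrils, rose from 96.8 ± 4.19 to 131.9 ± 16.6 CPM (adjusted p = 0.00321). *Lox*, which cross-links elastin and collagen, rose from 18.0 ± 1.19 to 26.2 ± 4.92 CPM (adjusted p = 0.0157). *Ltbp2*, a latent TGF-beta binding protein family member, fell from 101.8 ± 4.54 to 53.3 ± 15.8 CPM (adjusted p = 0.000562, all by edgeR; SD, n = 3). Against the other control only *Ltbp2* of these 3 passed, and *Fbn1* reversed to log2 -0.20. *Lox* was also lost without KO-con library 2 or 3 or KO library 2. The list's median was 0.01 in KO and -0.20 in Over, where *Fbn1* fell from 151.3 ± 8.14 to 116.9 ± 10.1 CPM (adjusted p = 0.0177, edgeR). That call was lost without Over-con library 1 or 2 or Over library 1 or 3 (adjusted p up to 0.145), and against KO-con *Fbn1* was higher in Over (log2 0.27, adjusted p = 0.00392). The controls differed for 4 of the 9, all lower in KO-con, beside 16.3% of all transcripts in either direction. Among the 4 were *Fbn1* (log2 -0.64), *Ltbp2* (log2 -0.47) and *Emilin1* (log2 -0.34, lost without KO-con library 1 or 2 or Over-con library 3). STO feeders can also make these matrix RNAs. Summed fibroblast markers ranged over 1124 to 1311 CPM in KO-con, 1020 to 1427 in KO, 1554 to 1723 in Over-con and 1390 to 1470 in Over, and their part in these values was not tested. Of that marker list 8 of 10 were tested, with 2 lower in KO, *Pdgfra* and *Dcn*, and 3 lower in KO-con than in Over-con, *Col3a1*, *Col1a1* and *Col1a2*. The shares of all transcripts were again 11.8% in KO and 16.3% between the controls. Both calls in KO were lost without KO-con library 1, *Pdgfra* also without KO library 2, and *Dcn* without KO-con library 3 or KO library 3. In Over edgeR called 0 of the 8, 4 had an unadjusted p under 0.05, and DESeq2 called 2 and limma-voom 1. *Pdgfrb* was listed at 0, and *Col1a2* and *Col1a1* were the most abundant.

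*Slc2a3*, which encodes the glucose transporter GLUT3, was the dominant RNA of the neighborhood. It lies on the minus strand at chr6:122677827-122751658, 97.5 kb from *Stella*, and ranked 12 among all transcripts by mean CPM. It took 0.409% to 0.589% of the counts of a library. Its level was 5294, 4936 and 5984 CPM in KO-con and 4570, 4104 and 4721 CPM in KO. It was 4837, 4997 and 5576 CPM in Over-con and 4859, 4604 and 5068 CPM in Over. Every KO library lay below every KO-con library, and all other pairs of groups overlapped except KO and Over-con.

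The group means fell in the order KO-con (5405 ± 533 CPM), Over-con (5136 ± 389), Over (4843 ± 232) and KO (4465 ± 322; SD, n = 3 each), and neighbors in that order overlapped. KO against KO-con gave a log2 fold change of -0.27 (SE 0.09), with an unadjusted p of 0.00717 and an adjusted p of 0.0557 by edgeR, which did not pass. With KO-con as control it passed in 6 of 15 other settings: DESeq2, limma-voom, no filter, all 12 libraries in 1 fit, and without KO library 1 or KO library 3. Over against Over-con gave log2 -0.09 (SE 0.07, adjusted p = 0.614) and the controls differed by log2 0.08 (SE 0.08, adjusted p = 0.602, edgeR).

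Per kilobase of its longest annotated transcript, *Slc2a3* stood at 1128 to 1365 CPM in the group means. That level was 33.3-fold that of *C3ar1* and 91.4-fold that of *Foxj2* over 12 libraries. Among 12 glucose transporters 6 were tested in each comparison. *Slc2a1*, which encodes GLUT1, was the next most abundant, at 515.4 CPM in KO-con, 516.8 in KO, 627.5 in Over-con and 608.1 in Over. By edgeR 0 of the 6 passed in KO and 0 in Over. An unadjusted p under 0.05 was seen for 1 in KO, *Slc2a3*, which DESeq2 and limma-voom called, and for 0 in Over, where both tools called 0. The medians of the list were 0.19 in KO and -0.15 in Over. *Slc2a1* alone differed between the controls, by log2 -0.28 (SE 0.07, adjusted p = 0.00762, edgeR).

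*Foxj2* encodes a forkhead transcription factor and lies on the plus strand at chr6:122769932-122795384, 189.6 kb from *Stella*. Its level was 68.1, 64.5 and 62.0 CPM in KO-con, 68.2, 65.6 and 72.5 CPM in KO, 86.3, 82.7 and 74.5 CPM in Over-con, and 77.2, 76.3 and 71.3 CPM in Over. Every Over-con and Over library lay above every KO-con library, and the Over-con libraries also lay above those of KO. The means ordered as Over-con (81.1 ± 6.06 CPM), Over (75.0 ± 3.17), KO (68.8 ± 3.49) and KO-con (64.9 ± 3.06; SD, n = 3 each), and neighbors in that order overlapped.

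Neither engineered line differed from its own control in *Foxj2* beyond the threshold, at log2 0.09 (SE 0.08, adjusted p = 0.55) in KO and -0.12 (SE 0.08, adjusted p = 0.562) in Over. KO-con was lower than Over-con, by log2 -0.32 (SE 0.09, adjusted p = 0.0138, edgeR). That call was lost without KO-con library 2, KO-con library 3 or Over-con library 1, with an adjusted p of up to 0.0872. Set against KO-con, the other control, Over was higher by log2 0.20 (adjusted p = 0.0311, edgeR).

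*C3ar1* encodes the receptor for the complement fragment C3a, a G protein-coupled receptor best known from myeloid cells, and lies on the minus strand at chr6:122797156-122806179, 216.9 kb from *Stella*. Its level was 213.6, 251.8 and 202.1 CPM in KO-con and 153.6, 138.1 and 178.6 CPM in KO. It was 176.7, 126.9 and 120.2 CPM in Over-con and 136.9, 116.8 and 127.4 CPM in Over. All KO-con libraries lay above every other library, and the other 3 groups overlapped one another except for KO and Over.

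*C3ar1* fell in KO against its own control, from 222.5 ± 26.0 to 156.8 ± 20.4 CPM (SD, n = 3 each; log2 -0.50, SE 0.10, adjusted p = 0.00338, edgeR). It was called in all 15 other settings with that control, with adjusted p between 2.03e-07 and 0.0355. The value rests on the choice of control: against Over-con, at 141.3 ± 30.9 CPM, KO was higher by log2 0.14 and did not pass (adjusted p = 0.646). The controls themselves differed by log2 0.66 (SE 0.11, adjusted p = 0.000328, edgeR), with the higher level in KO-con. Over, at 127.0 ± 10.0 CPM, gave log2 -0.17 against Over-con (SE 0.11, adjusted p = 0.592) and log2 -0.82 against KO-con (adjusted p = 3.86e-09, edgeR).

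Marker lists for macrophages and mast cells, blood cells known to carry C3a receptors, were set beside *C3ar1*. The summed level of 10 macrophage markers ranged over 34.8 to 42.3 CPM in KO-con, 45.7 to 56.1 in KO, 35.1 to 40.9 in Over-con and 50.5 to 52.4 in Over. *Cd68*, the most abundant, rose in both KO and Over, the only call of 3 and of 2 tested, beside 11.8% and 1.65% of all transcripts. *Mertk* came next in abundance. The *Cd68* call was lost without KO-con library 2 or 3 or KO library 3 in KO, and without Over library 2 in Over. *Adgre1*, *C1qa* and *C1qb* were listed at 0. Between the controls edgeR called 0 of 2, with 0 at an unadjusted p under 0.05 and 0 called by DESeq2 or limma-voom. Mast cell markers summed to 369.7 to 436.0 CPM in KO-con, 1159 to 1233 in KO, 756.8 to 862.5 in Over-con and 651.2 to 673.5 in Over. Of that list 5 of 12 were tested in KO and 3 rose, *Cpa3*, *Cma1* and *Hdc*, where 11.8% of all transcripts passed in either direction. The call of *Hdc* was lost without KO-con library 1 or 3 or KO library 2 or 3. *Cpa3*, a mast cell carboxypeptidase, made up most of the sum, at 400.5 ± 36.2 CPM in KO-con and 1170 ± 38.3 in KO, with *Gata2* next, and *Fcer1a*, *Ms4a2* and *Tpsab1* were listed at 0. *Cpa3* fell in Over, to 652.6 ± 14.9 from 801.8 ± 57.2 CPM, the only call of 4 tested, beside 1.65% of all transcripts. That call was lost with the replicate block and without any 1 library but Over-con library 3 (adjusted p up to 0.192). Against the other control, KO-con, *Cpa3* was higher in Over (log2 0.70, adjusted p = 5.38e-10, edgeR). Between the controls *Cpa3* was lower in KO-con, at 400.5 against 801.8 CPM (adjusted p = 1.33e-08, edgeR), where *C3ar1* was higher. *C3ar1* was lower in KO, where both sums were higher. The part of these markers in the *C3ar1* values was not tested. In bulk RNA, fewer cells of a type and less RNA per cell cannot be told apart.

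The complement list showed which partners of *C3ar1* were counted. Of 17 genes, 6 were listed at 0, the C5a receptor genes *C5ar1* and *C5ar2* among them, each with 2 listed transcripts. In KO 7 were tested, 0 rose and 3 fell, with a median of -0.50 beside 0.007 over all transcripts, of which 11.8% passed in either direction. Against the other control 0 of the list passed by edgeR. The other members of the 3 were *C4b*, a complement component, from 41.0 ± 0.673 to 23.3 ± 4.43 CPM (adjusted p = 0.000489), and *Itgb2*, the beta chain of leukocyte integrins, from 12.3 ± 0.561 to 8.10 ± 1.22 CPM (adjusted p = 0.0181, edgeR; SD, n = 3). Against Over-con they gave log2 -0.46 (adjusted p = 0.0657) and -0.37 (adjusted p = 0.363), and *Itgb2* was also lost without KO-con library 1 or 2 or KO library 2. *C4b* shares much of its sequence with its paralog *C4a*, and its count is uncertain for that reason. *C3*, the source of the ligand, was very abundant at group means of 7004 to 9849 CPM. It fell in Over, from 9849 ± 616 to 7004 ± 514 CPM (log2 -0.50, SE 0.07, adjusted p = 0.000963, edgeR). That was the only call of 7 there, beside 1.65% of all transcripts, and the median was -0.24.

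*Necap1* encodes an endocytic adaptor protein that binds AP-2 and lies on the plus strand at chr6:122824492-122838952, 244.2 kb from *Stella*. It had 85 counts in the whole series and 2 to 12 per library, equal to 0.182 to 1.14 CPM, and it did not pass the filter. Counts summed to 21 in KO-con, 18 in KO, 20 in Over-con and 26 in Over, and all groups overlapped. It has 2 listed transcripts. Of 16 genes of the list for NECAP1, AP-2 and clathrin, 4 were listed at 0 and 10 had a mean under 1 CPM. Those 10 all have several listed transcripts, so their low counts are not read as low expression. In KO and in Over 6 were tested. edgeR, DESeq2 and limma-voom called 0 in both, with 2 and 1 at an unadjusted p under 0.05, and the medians were 0.01 and -0.04. The test of different effects in KO and Over passed for 1 listed transcript of *Eps15*, an endocytic scaffold (adjusted p = 0.0387, edgeR), and was lost in 13 of 20 other settings, DESeq2 among them.

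Promoters were set side by side because well-counted and uncounted members lie within the same locus, the well-counted *Slc2a3*, *Foxj2* and *C3ar1* next to one another. RefSeq (GRCm38.p6) gave the 250 bases before the start for 5 of the 9 members, and CG pairs were searched as the letters CG, which read the same on both strands. No entry was used for *Stella*, *Gdf3*, *Slc2a3* and *Mfap5*. Of all 32851 promoters in the table, 92.1% held at least 1 CG, with a median of 6 CG and 52.4% G and C. In the sequences, CG is in capitals.
*Foxj2*, chr6:122819934-122820183, plus strand: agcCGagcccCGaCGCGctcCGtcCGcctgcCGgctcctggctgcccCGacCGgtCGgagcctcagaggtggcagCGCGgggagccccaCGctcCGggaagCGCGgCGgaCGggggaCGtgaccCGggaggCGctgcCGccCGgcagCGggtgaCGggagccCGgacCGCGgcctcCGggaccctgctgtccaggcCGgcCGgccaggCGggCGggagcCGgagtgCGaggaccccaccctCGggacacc
*C3ar1*, chr6:122856158-122856407, minus strand: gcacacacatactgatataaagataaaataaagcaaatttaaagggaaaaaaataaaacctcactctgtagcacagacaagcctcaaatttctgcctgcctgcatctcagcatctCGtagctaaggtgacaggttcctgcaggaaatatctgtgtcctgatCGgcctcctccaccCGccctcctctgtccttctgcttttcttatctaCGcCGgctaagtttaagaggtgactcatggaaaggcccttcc
*Nanog*, chr6:122707239-122707488, plus strand: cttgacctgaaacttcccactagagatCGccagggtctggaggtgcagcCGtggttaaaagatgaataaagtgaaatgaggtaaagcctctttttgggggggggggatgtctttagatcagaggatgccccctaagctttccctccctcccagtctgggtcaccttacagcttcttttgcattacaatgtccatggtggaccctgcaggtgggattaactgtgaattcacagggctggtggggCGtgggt
*Foxj2* had 36 CG and 80.4% G and C, and 2.6% of all promoters had as many CG. *C3ar1* had 5 CG (55.6% of promoters had as many), and the first of the starts listed for *Nanog* had 3 (71.0%). *Necap1*, not shown, had 22 CG (14.8%) and *Apobec1* 7 (46.3%). The well-counted members *Foxj2* and *C3ar1* thus stood far apart in CG content.

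Counted over all comparisons, few members passed, and their shares are read against those of all transcripts. In KO against KO-con 3 of 9 members were tested and 1, *C3ar1*, passed, where 1115 of 9457 transcripts (11.8%) passed. In Over against Over-con 4 were tested and 1, *Stella*, passed, where 155 of 9401 (1.65%) passed. That call is fixed by construction, since the Over libraries carry *Stella* in the vector, and it is not read against that share. Of the other 3 members 0 passed by edgeR, DESeq2 or limma-voom, and 0 had an unadjusted p under 0.05. Between the controls 3 were tested and 2, *Foxj2* and *C3ar1*, passed, where 1516 of 9321 (16.3%) passed. With a log2 fold change over 1 as well, the members counted 0, 1 (*Stella*) and 0, beside 1.7%, 0.17% and 2.16% of transcripts.

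The test of the difference between the KO and Over effects passed for no member. edgeR called 0 members, beside 8.64% of 9903 transcripts, and 0 had an unadjusted p under 0.05. DESeq2 and limma-voom each called 1, *Stella*, whose value has no meaning there because KO and KO-con were both at 0. The differences were log2 -0.18 (SE 0.11) for *Slc2a3*, 0.21 (SE 0.11) for *Foxj2* and -0.34 (SE 0.17) for *C3ar1*, with adjusted p of 0.391, 0.273 and 0.267. *C3ar1* passed this test with no filter and without Over-con library 1 (adjusted p of 0.0409 at the lowest). Of the list genes, *Klf4* (log2 0.68), *C4b* (-1.05), *Fbn1* (0.83) and *Cpa3* (1.86) passed, also in all 20 other settings. Their adjusted p by edgeR were 0.00299, 0.000239, 0.000148 and 2.53e-10. *C4b*, *Fbn1* and *Cpa3* also differed between the controls, on which this test depends. *Acvr2a*, *Eps15*, *Ltbp2*, *Prdm1*, *Thy1* and *Pdgfra* passed as well but were lost in 4 to 13 other settings.

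**Figure D3:**
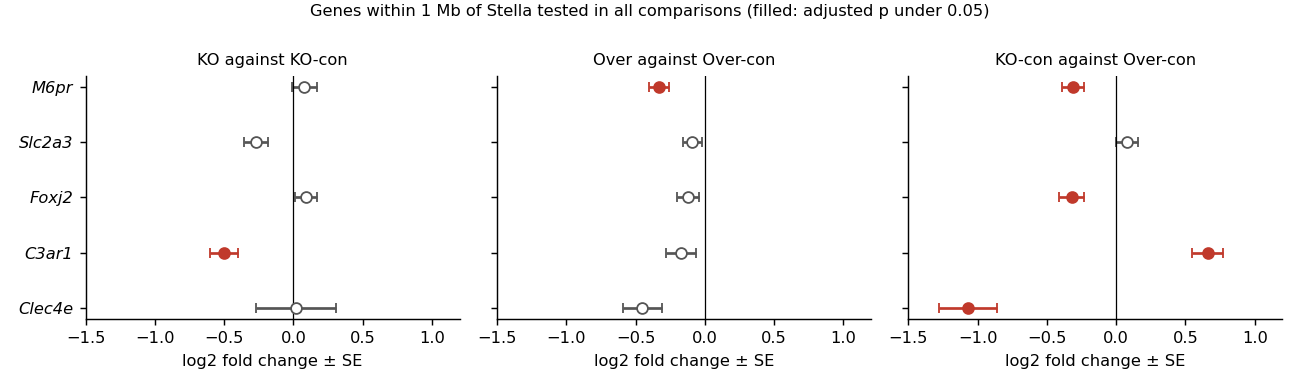
Log2 fold change with SE (edgeR) of the 5 genes within 1 Mb of *Stella* that were tested in each of 3 comparisons, filled where the adjusted p was under 0.05. *C3ar1* is filled in KO against KO-con, *M6pr* in Over against Over-con, and all but *Slc2a3* between the controls.

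A wider window put the members among all genes within 1 Mb of *Stella*. It held 32 genes, of which 13 had no count in any library and 6 reached a mean of 1 CPM. Besides *Stella*, 5 genes were tested in each comparison, the members *Slc2a3*, *Foxj2* and *C3ar1* and the genes *M6pr* and *Clec4e*. Of these 5, 1 passed in KO, 1 in Over and 4 between the controls, beside 11.8%, 1.65% and 16.3% of all transcripts. At 1 to 5 Mb, 8 of 56 transcripts passed in KO (1 higher, 7 lower), 2 of 56 in Over (1 higher, 1 lower) and 9 of 55 between the controls (5 higher, 4 lower). At 5 to 20 Mb, 10 of 73 passed in KO (4 higher, 6 lower).

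*M6pr*, the cation-dependent mannose 6-phosphate receptor of the lysosomal sorting route, lies 308.7 kb from *Stella* at chr6:122258738-122267698, plus strand. Its level was 511.7, 493.2 and 428.7 CPM in Over-con and 395.5, 392.6 and 359.4 CPM in Over, without overlap. It fell in Over by log2 -0.33 (SE 0.07, adjusted p = 0.0314, edgeR), a call lost with all 12 libraries in 1 fit, with the replicate block (adjusted p = 0.0593), and without any single library other than Over-con library 3, with an adjusted p of up to 0.202. Against KO-con the value in Over was log2 -0.017 (adjusted p = 0.869). In KO-con it was 366.0, 398.8 and 391.1 CPM, below Over-con by log2 -0.31 (SE 0.08, adjusted p = 0.00855, edgeR), lost without KO-con library 1 or Over-con library 1. In KO it was 366.4, 385.0 and 470.1 CPM (log2 0.08, adjusted p = 0.616).

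*Clec4e*, a C-type lectin receptor of myeloid cells, lies 651.5 kb from *Stella* at chr6:123231807-123239889, minus strand. It stood at 14.0, 31.8 and 19.4 CPM in KO-con and at 59.8, 40.7 and 37.9 CPM in Over-con, and these did not overlap. The difference was log2 -1.07 (SE 0.21, adjusted p = 0.000865, edgeR) and missed the threshold with DESeq2 (adjusted p = 0.0504). KO libraries were at 19.8, 13.2 and 33.6 CPM (adjusted p = 0.975) and Over libraries at 33.5, 31.7 and 37.8 CPM (adjusted p = 0.151). KO overlapped its control, and the highest Over library lay just below the lowest of Over-con. In Over it passed with no filter and without Over-con library 3.

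**Figure D4:**
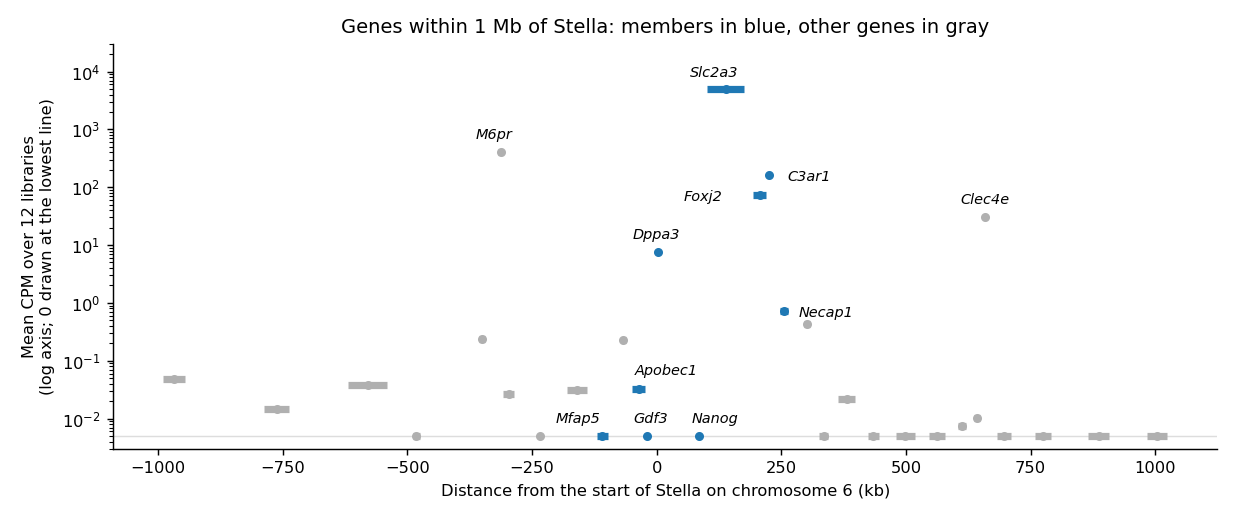
Mean CPM over 12 libraries (log axis, 0 drawn at the lowest line) of the 32 genes within 1 Mb against distance from the start of *Stella* in kb, members in blue, with bars for gene length. *Slc2a3* stands highest at 4962 CPM, the mean of *Stella* comes from the Over libraries alone, and *Gdf3*, *Nanog* and *Mfap5* lie on the line for 0.

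The genes whose log2 CPM ran most like each member over the 12 libraries were listed as a description. All points share libraries and groups. *Stella* was at 0 in 9 of the libraries, so its r ranks genes only by how Over stood apart from the rest. For *Stella* they were *Lama1* (r = 0.967), a laminin chain, *Msh6* (r = 0.942), a DNA mismatch repair protein, and *Pkp2* (r = 0.927), a desmosomal plakophilin. *Lama1* and *Msh6* lie on chromosome 17 and *Pkp2* on chromosome 16. *Lama1* was at 1.06 ± 0.126 CPM in Over and at most 0.0583 in the other group means, so it passed the filter on low counts only through Over. *Msh6* was at 121.3 ± 1.86 CPM in Over and between 89.6 and 96.8 elsewhere (SD, n = 3). *Slc2a3* was most like *H2-Bl* (r = 0.86), which stood between 0.783 and 2.03 CPM, *Foxj2* most like *Map3k19* (r = 0.948) and *C3ar1* most like *Prf1* (r = 0.955), which encodes perforin and ran from 38.5 ± 6.71 CPM in KO-con to 22.1 ± 2.34 CPM in Over.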

How the data were processed

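RNA-seq was analysed in 12 libraries, with groups and replicate numbers taken from the sample titles. The authors aligned reads to mm9 with HISAT2 and deposited raw counts per RefSeq transcript; the counting of shared reads and the strand setting are not given in the sources used here. The table lists 41388 transcripts. Symbols came from RefSeq (GRCm38.p6; 41186 matched), and positions from the mm9 annotation (38552, 93.1%). Transcripts were tested as listed with edgeR 4.0.16 (TMM, filterByExpr, quasi-likelihood test, Benjamini-Hochberg adjustment over all transcripts tested), called at an adjusted p under 0.05. CPM were TMM-normalized over 12 libraries. Each pair of libraries in a group differed by more than counting noise (chi-square per degree of freedom 2.02 to 14.0), so none was counted as a duplicate.

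The members, 7 gene lists and 4 marker lists were chosen with earlier results of these data known. Named were the members, called genes within 1 Mb, at most 3 called genes per list and comparison, the 2 most abundant markers and those at 0, and the genes most like each member by Pearson's r; other list genes were named after their values were seen. Alternatives were DESeq2 1.42.0, limma-voom (limma 3.58.1), DESeq2 size factors or library totals, no filter or at least 10 counts per library, 1 fit of all libraries, a replicate block, counts per gene, the other control, other windows, and each library left out. The edgeR steps were tested on simulated data in R 4.3.3. Guides and primers were located by exact search in mm9.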

Additional observations from a re-analysis of the deposited data

Results flagged for a closer look

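1 result near *Stella* was marked because the effects in the engineered lines differed by a test. For *M6pr* the knockout effect minus the overexpression effect was 0.41 on the log2 scale (SE 0.12, adjusted p = 0.039 by edgeR's interaction contrast over all 12 libraries). The effects were 0.08 in KO and -0.33 in Over. The call held with DESeq2, limma-voom, other scalings, other filters and counts per gene. It was lost with the replicate block (adjusted p = 0.063) and without KO-con 1, 2 or 3, KO 3, Over-con 1 or 2, or Over 1, 2 or 3, with values of 0.30 to 0.48 and adjusted p of 0.00932 to 0.125 over all libraries left out in turn. The cause was not tested.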

How the results depend on the processing

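In KO against KO-con the count of members called, 1, was 2 with DESeq2, limma-voom, no filter and all 12 libraries in 1 fit, 1 to 2 without each library (2 without KO 1 or KO 3), and 0 against the other control; the gene added was *Slc2a3*. The count within 1 Mb, 1, took the same values, but 4 at 2 Mb on each side and 1 against the other control. In Over against Over-con the member count, 1, was 0 with at least 10 counts per library, which removes *Stella* by construction, and 3 with the other control. The count within 1 Mb, 1, was 2 with no filter, 0 with all 12 libraries in 1 fit, 3 with the other control and 0 to 2 without each library. Between the controls 2 members became 1 to 2 without each library, and the difference of effects, 0 members, gave 1 with DESeq2, limma-voom and no filter and 0 to 1 without each library. Reversed against the other control in KO were *Foxj2* (-0.24), *C3ar1* (0.14), *Clec4e* (-1.06) and *M6pr* (-0.24), and in Over *Foxj2* (0.20) and *Clec4e* (0.62), the controls themselves being different; *M6pr* in Over lost its call there. *Clec4e* in KO was -0.016 with limma-voom and -0.43 to 0.43 without each library, *M6pr* in KO -0.038 to 0.15, *C3ar1* in Over -0.28 to 0.034, and *Slc2a3* between the controls -0.0036 to 0.14. Elsewhere the cause was not tested. Of 350 values of single genes 302 kept direction and side of the threshold, 24 lost the call, 11 gained it and 13 reversed; of 737 list counts 139 changed by over 1.5 times.

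With the replicate block, the count within 1 Mb in Over fell from 1 to 0 (*M6pr*), and the member counts were 1, 1, 2 and 0. Libraries that share a number did not deviate together over all transcripts tested (correlations of -0.152 to 0.057). Such correlations cannot exclude a small shared effect, because counting noise lowers them. The sources describe no pairing, and the libraries are not treated as paired. *Necap1* and *Apobec1* had 85 and 4 counts, and like *Nanog* and *Mfap5* they have several listed transcripts; whether depth or the counting of such genes limits them was not tested.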
